A study of Mus musculus with 12 samples.

Results

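Immediate early genes are switched on within minutes of a stimulus from factors already present in the cell, and most of the 10 genes described here encode transcription factors. Fos, Fosb, Fosl1 and Fosl2 encode FOS proteins, which pair with the JUN proteins encoded by Jun and Junb to form AP-1. Egr1 and Egr2 encode zinc finger factors, Atf3 encodes a stress-induced factor of the ATF family, and Dusp1 encodes a phosphatase that inactivates MAP kinases and so limits the signal that induced it. In cultured fibroblast-like cells, serum and growth factors acting through the ERK kinases and the factor SRF are the classical inducers. The members were all array entries that the platform annotation assigns to the 10 symbols, 13 of 45281 entries. They cover 9 genes, since no entry used here was annotated to Fosl1, and 11 entries passed the detection filter.

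Expression was measured on single-colour Illumina bead arrays in cultured mouse cells of 3 origins, with 4 arrays each. Bone marrow gave mesenchymal stem cells (MSC), and heart and kidney gave cells described in the labels as resembling them. In all 3 groups total RNA was extracted with no DNase step. The sources used here do not give the strain, sex and age of the mice, the passage, the culture medium, any treatment, or the time between the last medium change and lysis. The 4 samples of a tissue are called biological replicates, but nothing ties them to separate animals, and the p-values cover only the spread among these 4, which may be technical.

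Mean raw signal per array was 754 to 1066, lowest on bone marrow replicate 1, and 18635 to 19792 entries were detected. Stromal markers were detected on all 4 arrays for 9 of 10 genes in bone marrow and kidney and for all 10 in heart. Of 11 macrophage markers 8 were detected on 0 arrays, Ptprc, Itgam and Tyrobp among them, while Csf1r and Lyz2 were detected on all 12. The summed linear signal of that list was 522 to 586 in heart, above bone marrow (419.8 to 502) and kidney (433 to 486) on every array, and heart was also where several members were highest. The sum of the stromal list was highest in heart too, at 99820 to 112700 against 79700 to 93120 in bone marrow and 85340 to 95680 in kidney. Of 6 cardiomyocyte markers 3 were detected on 0 arrays (Myh6, Actc1 and Myl7), as were 4 of 8 renal epithelial markers (Epcam, Krt18, Pax8 and Slc34a1). Of the other renal markers, Krt8 was detected on all 12 arrays, Cdh1 on 4 arrays of bone marrow, 3 of heart and 4 of kidney, and Cdh16 on 2 kidney arrays and 0 others, and the list's sum overlapped between the tissues (315 to 422 in bone marrow, 277 to 350.2 in heart and 337 to 470.2 in kidney). Of 8 endothelial markers Kdr, Vwf and Cldn5 were detected on 0 arrays, but the summed linear signal of that list was 634 to 667 on the kidney arrays against 271 to 357 in bone marrow and 260 to 321 in heart. Emcn, a sialomucin gene, was detected on 4 kidney arrays and 0 others, with a mean log2 signal of 8.654 in kidney, 4.665 in bone marrow and 4.638 in heart. The next highest kidney mean of that list was 5.479 (Pecam1). Tek went the other way, with detection on 2 arrays of bone marrow, 3 of heart and 0 of kidney. The part of these markers in the results below was not tested. In bulk samples, fewer cells making an RNA and less RNA per cell cannot be told apart.

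The promoters of Fos, Fosb, Dusp1 and Egr2 are shown because these 4 genes held the member differences of at least 2-fold between heart and bone marrow cells, the first 3 upward in heart and Egr2 downward. Each window is from RefSeq (GRCm38.p6) and runs 5′ to 3′ on the gene's strand from 250 bases before to 50 bases after the annotated start, at chr12:85473640-85473939 (plus strand) for Fos, chr7:19309996-19310295 (minus strand) for Fosb, chr17:26508423-26508722 (minus strand) for Dusp1 and chr10:67537619-67537918 (plus strand) for Egr2, the latter 1 of 5 windows listed for that gene. Capitals mark matches on either strand to any of 5 motifs, which were the CArG box bound by SRF, TGACGT (the core of the CREB/ATF site), TGANTCA (the AP-1 site), GCGNGGGCG (the EGR site) and TATAAA.
Fos: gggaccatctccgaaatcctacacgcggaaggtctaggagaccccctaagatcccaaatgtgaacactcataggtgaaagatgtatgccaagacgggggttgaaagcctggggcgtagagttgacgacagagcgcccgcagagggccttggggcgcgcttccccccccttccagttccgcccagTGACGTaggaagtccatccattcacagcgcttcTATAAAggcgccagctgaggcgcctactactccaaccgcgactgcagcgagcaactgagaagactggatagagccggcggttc
Fosb: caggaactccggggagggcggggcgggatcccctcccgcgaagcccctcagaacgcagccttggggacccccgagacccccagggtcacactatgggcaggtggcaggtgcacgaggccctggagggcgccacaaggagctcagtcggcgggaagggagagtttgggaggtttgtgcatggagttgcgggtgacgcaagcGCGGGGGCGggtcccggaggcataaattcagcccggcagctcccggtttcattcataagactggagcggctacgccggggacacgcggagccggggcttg
Dusp1: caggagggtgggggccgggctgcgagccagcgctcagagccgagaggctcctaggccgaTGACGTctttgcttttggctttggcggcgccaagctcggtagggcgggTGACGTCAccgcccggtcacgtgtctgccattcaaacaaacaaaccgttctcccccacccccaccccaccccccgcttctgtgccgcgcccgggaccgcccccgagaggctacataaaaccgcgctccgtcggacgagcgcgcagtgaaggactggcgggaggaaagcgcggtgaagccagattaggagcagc
Egr2: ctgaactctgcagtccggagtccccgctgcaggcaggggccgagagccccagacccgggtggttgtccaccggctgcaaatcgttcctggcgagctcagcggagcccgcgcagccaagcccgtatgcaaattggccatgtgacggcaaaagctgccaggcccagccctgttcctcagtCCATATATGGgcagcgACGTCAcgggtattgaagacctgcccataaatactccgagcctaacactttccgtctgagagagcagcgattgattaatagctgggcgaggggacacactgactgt

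These windows differed in the motifs they held. The Fos window held TGACGT at base -66 and TATAAA at -33, and the Fosb window held an EGR-type match at -50. In the Dusp1 window TGACGT occurred at -191, and at -143 and -141 on opposite strands as 1 palindromic element in which both matches overlap. The Egr2 window held a CArG box at -72 (palindromic, so matched on both strands) and TGACGT on the opposite strand at -56. That window was picked among those of the gene for holding both motifs. Its matches were thus fixed by the choice and are not set against the shares below. Of the 5 Egr2 windows, the one starting at base 67537316 held a CArG box without TGACGT, and not all held a match. Over all 32851 windows in the RefSeq table a CArG box was found in 1.63%, TGACGT in 7.51%, TGANTCA in 7.81%, GCGNGGGCG in 5.55% and TATAAA in 13.6%. No member window held TGANTCA. A match is a description of these letters, not evidence of a binding site. Sequence outside the windows was not searched. A motif absent from a window, such as the CArG box from that of Fos, may therefore lie further upstream or downstream. RefSeq windows were matched for 8 of the 10 genes, 12 windows in all.

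Across the tissues, heart cells had the highest signal of Fos, Fosl2 entry 3, Junb, Egr1 and Dusp1 and the lowest of Egr2, while Fosb entry 1 was high in both heart and kidney cells, and Jun had no difference that passed. Values below are background-corrected, quantile-normalized log2 signals, and differences between tissues are on the log2 scale, ± SE, fitted with limma, with p-values adjusted by Benjamini-Hochberg over all 20649 entries that passed the detection filter. By limma's F test over the tissues, 9 of the 11 member entries passed (adjusted p under 0.05), against 62.9% of all entries. Heart minus bone marrow called 8 of 11, 7 higher and 1 lower, where 51.6% of all entries were called (23.6% higher and 28% lower). Kidney minus bone marrow called 5 of 11, 3 higher and 2 lower, against 39.2% (18.4% higher and 20.8% lower). Kidney minus heart called 7 of 11, 1 higher and 6 lower, against 43.8% (23.3% higher and 20.4% lower), or 6 of 10 without Fosl2 entry 2, which no kidney array detected. The signals of the compared tissues did not overlap for 7, 5 and 7 of the 11 entries in the same order, against 45.6%, 34.4% and 42.6% of all entries. Both kidney counts of non-overlap include Fosl2 entry 2, as do the F test count above and the medians below. Differences of at least 2-fold numbered 4, 2 and 3 of 11, against 12.3%, 7.32% and 9.45%. The median member difference was 0.58, -0.04 and -0.41, beside -0.04, -0.02 and 0.04 over all entries. Any pair of these comparisons shares the 4 arrays of 1 tissue, so they are not independent.

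**Figure D1:**
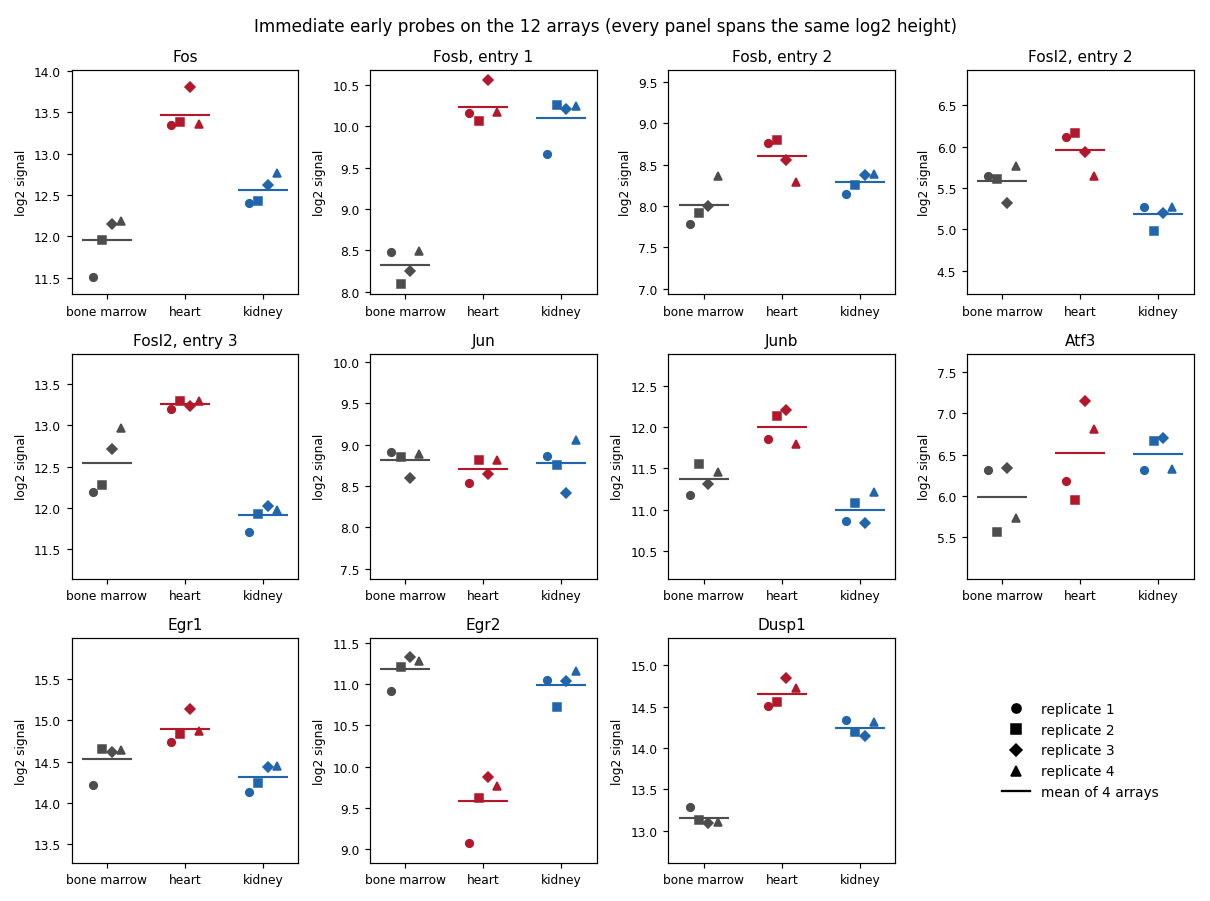
Normalized log2 signal (y axis) of the 11 tested member entries on the 12 arrays, by tissue (x axis), with a marker shape per replicate and a line at the mean of 4 arrays; every panel spans the same log2 height. For Fos the 3 tissues are fully separated, with heart at 13.35 to 13.80, whereas for Jun they overlap, and Egr2 is lowest in heart at 9.07 to 9.87.

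Fos was graded over the tissues, lowest in bone marrow, intermediate in kidney and highest in heart. Its log2 signal was 11.51, 11.96, 12.15 and 12.18 on bone marrow replicates 1 to 4, 13.35, 13.38, 13.80 and 13.36 on the heart arrays, and 12.40, 12.43, 12.62 and 12.77 on the kidney arrays. No array of one tissue overlapped another tissue. Fos was 2.87-fold higher in heart than in bone marrow (1.52 ± 0.13, adjusted p = 2.79e-09) and 1.52-fold higher in kidney than in bone marrow (0.60 ± 0.13, adjusted p = 0.00074). It was lower in kidney than in heart, with a log2 difference of -0.92 ± 0.13 (adjusted p = 5.46e-06). Bone marrow replicate 1 was the lowest array, and without it the differences from bone marrow were 1.37 ± 0.10 for heart and 0.45 ± 0.10 for kidney.

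Fosb, which encodes a FOS protein known for a long-lived splice form that accumulates under repeated stimulation, had 2 entries under a single probe identifier (ILMN_2778279), and they gave different pictures. Raw intensity of entry 1 was 334.3, 361.7, 370.5 and 471.1 on the bone marrow arrays, 1241.2, 1132.3, 1655.5 and 1429.7 on the heart arrays, and 978.6, 1415.8, 1444.3 and 1408.5 on the kidney arrays. Every heart and kidney array was above every bone marrow array, and heart and kidney overlapped. Raw intensity of entry 2 was 246.1, 333.0, 327.8 and 441.8 in bone marrow, 544.4, 549.4, 510.2 and 473.3 in heart, and 411.2, 429.7, 484.4 and 475.1 on the kidney arrays. Entry 2 was detected on all 12 arrays as well, with a far smaller spread between tissues.

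**Figure D2:**
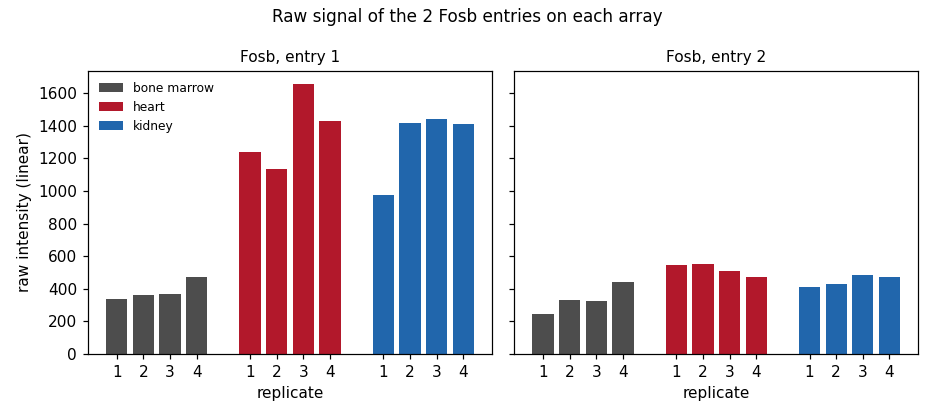
Raw intensity on a linear scale (y axis, from 0) of each Fosb entry on each array (x axis, replicates 1 to 4 per tissue, 1 bar per array). Entry 1 stays at or below 471.1 in bone marrow and is at least 978.6 in heart and kidney, while entry 2 lies between 246.1 and 549.4 throughout.

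After normalization, Fosb entry 1 was 3.77-fold higher in heart than in bone marrow (1.91 ± 0.14, adjusted p = 2.37e-10) and 3.41-fold higher in kidney than in bone marrow (1.77 ± 0.14, adjusted p = 1.52e-09). Between kidney and heart it differed by -0.14 ± 0.14, with a 95% interval from -0.43 to 0.14 (adjusted p = 0.431). Fosb entry 2 rose in heart by 0.58 ± 0.14 (adjusted p = 0.00145), although 1 heart array, at 8.29, lay below bone marrow replicate 4 at 8.37. In kidney minus bone marrow it gave 0.28 ± 0.14 (adjusted p = 0.128) and in kidney minus heart -0.31 ± 0.14 (adjusted p = 0.084). Both calls turned on 1 array, with 0.39 ± 0.14 (adjusted p = 0.0287) without bone marrow replicate 4 and -0.41 ± 0.14 (adjusted p = 0.0261) without heart replicate 4.

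The disagreement between the Fosb entries was tested within arrays, a test chosen after seeing the data. The log2 difference of entry 1 over entry 2 was 0.31 ± 0.27 (SD, n = 4) in bone marrow, 1.64 ± 0.36 in heart and 1.80 ± 0.21 on the kidney arrays. It was larger in heart than in bone marrow by 1.33 and in kidney by 1.49. Each had a two-sided exact permutation p = 0.0286, the smallest that 4 arrays against 4 allow (p = 0.0429 after Benjamini-Hochberg adjustment over 6 such tests). The 3 tests on Egr2 against Egr1 are not used, since the separate values of those genes fix their result. The separate values of the Fosb entries likewise fix both results against bone marrow, so those p-values are not used as support. Between kidney and heart the log2 difference of entry 1 over entry 2 differed by 0.16 (exact p = 0.457, adjusted 0.548). The tables used here do not say which transcript or exon either entry reads, and only entry 1 is carried in the authors' processed table.

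Fosl2, which encodes FRA2, a FOS protein that outlasts FOS after stimulation, was ordered differently from Fos, with kidney lowest. It had 3 entries under 1 identifier (ILMN_1252481), whose symbol was given to each, and which sequence each entry reads is not known from the tables used here. The authors' processed table carries entry 1, so that the values of entry 3 rest on the shared identifier alone. The bright entry, entry 3, had log2 signals of 12.19, 12.28, 12.72 and 12.97 in bone marrow, 13.20, 13.30, 13.23 and 13.29 in heart, and 11.71, 11.93, 12.02 and 11.98 on the kidney arrays. The tissues did not overlap, and bone marrow was spread over a wider range than the other tissues. Entry 3 was higher in heart than in bone marrow by 0.72 ± 0.12 (adjusted p = 5.34e-05), lower in kidney than in bone marrow (-0.63 ± 0.12, adjusted p = 0.000357) and lower in kidney than in heart (-1.35 ± 0.12, adjusted p = 1.53e-08). Entry 2 lay near background, with detection on 1 array of bone marrow, 3 of heart and 0 of kidney. It passed the filter on those 4 arrays alone, so its call in kidney minus heart (at least 1.29-fold lower in kidney, adjusted p = 0.00132) is given as a bound and not used as support. Without entry 2 that comparison called 6 of 10 member entries, 5 of them lower, and the calls against bone marrow were unaffected, at 8 and 5 of 10. Entry 2 did not pass in heart minus bone marrow (0.37 ± 0.18, adjusted p = 0.0911), but did without heart replicate 4 (0.48 ± 0.19, adjusted p = 0.0421). Entry 1 was detected on 0 arrays, with raw intensity of 123.3 to 155.8, and was not tested.

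Among the JUN genes, Junb followed the order of Fosl2 entry 3 while Jun showed no difference that passed. Junb encodes a JUN protein that activates transcription more weakly than JUN at many AP-1 sites. Its bright probe (ILMN_1220034) had log2 signals of 11.18, 11.55, 11.31 and 11.46 in bone marrow, 11.85, 12.13, 12.21 and 11.80 in heart, and 10.86, 11.08, 10.84 and 11.21 on the kidney arrays. Heart stood above both other tissues on every array, and 1 kidney array overlapped bone marrow. Junb was 1.54-fold higher in heart than in bone marrow (0.62 ± 0.11, adjusted p = 5.67e-05), lower in kidney than in bone marrow (-0.38 ± 0.11, adjusted p = 0.00774) and 2-fold lower in kidney than in heart, with a 95% interval of the log2 difference from -1.23 to -0.78 (adjusted p = 1.59e-07). A second Junb probe (ILMN_1254833) was detected on 2 arrays of bone marrow, 0 of heart and 1 of kidney, at raw intensities of 134.7 to 171.2, and was not tested.

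Jun, the partner of all FOS proteins in AP-1, had log2 signals of 8.91, 8.85, 8.60 and 8.89 in bone marrow, 8.54, 8.81, 8.65 and 8.81 in heart, and 8.87, 8.76, 8.42 and 9.06 on the kidney arrays. All 3 ranges overlapped. The differences were -0.11 ± 0.13 for heart minus bone marrow, with a 95% interval from -0.38 to 0.16 (adjusted p = 0.499), and -0.04 ± 0.13 for kidney minus bone marrow, with an interval from -0.30 to 0.23 (adjusted p = 0.859). For kidney minus heart the difference was 0.08 ± 0.13 (adjusted p = 0.669).

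The EGR genes differed in opposite directions between heart and bone marrow. Egr1, which encodes a factor induced by growth factors in most cell types, had log2 signals of 14.22, 14.65, 14.62 and 14.64 in bone marrow, 14.74, 14.83, 15.14 and 14.87 in heart, and 14.13, 14.24, 14.44 and 14.45 on the kidney arrays. Heart was above every other array, and bone marrow and kidney overlapped. Egr1 was 1.29-fold higher in heart than in bone marrow (0.36 ± 0.10, adjusted p = 0.00426) and lower in kidney than in heart (-0.58 ± 0.10, adjusted p = 6.71e-05). In kidney minus bone marrow it gave -0.22 ± 0.10 (adjusted p = 0.0956). Without bone marrow replicate 1 that difference passed (-0.32 ± 0.08, adjusted p = 0.00322) and the heart difference from bone marrow was 0.26 ± 0.08 (adjusted p = 0.0117). Raw Egr1 signal reached 38157.8, where the brightest entry on any array read 64071.3.

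Egr2, which encodes a related factor known for its role in myelinating Schwann cells and the hindbrain, moved the other way. Its log2 signal was 10.91, 11.20, 11.32 and 11.28 in bone marrow, 9.07, 9.62, 9.87 and 9.77 in heart, and 11.05, 10.72, 11.03 and 11.16 on the kidney arrays. All heart arrays lay below every other array, while kidney and bone marrow overlapped. Egr2 was 3.01-fold lower in heart than in bone marrow (-1.59 ± 0.14, adjusted p = 5.21e-09) and 2.65-fold higher in kidney than in heart (1.41 ± 0.14, adjusted p = 4.87e-08). In kidney minus bone marrow it gave -0.19 ± 0.14, with an interval from -0.48 to 0.11 (adjusted p = 0.317).

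**Figure D3:**
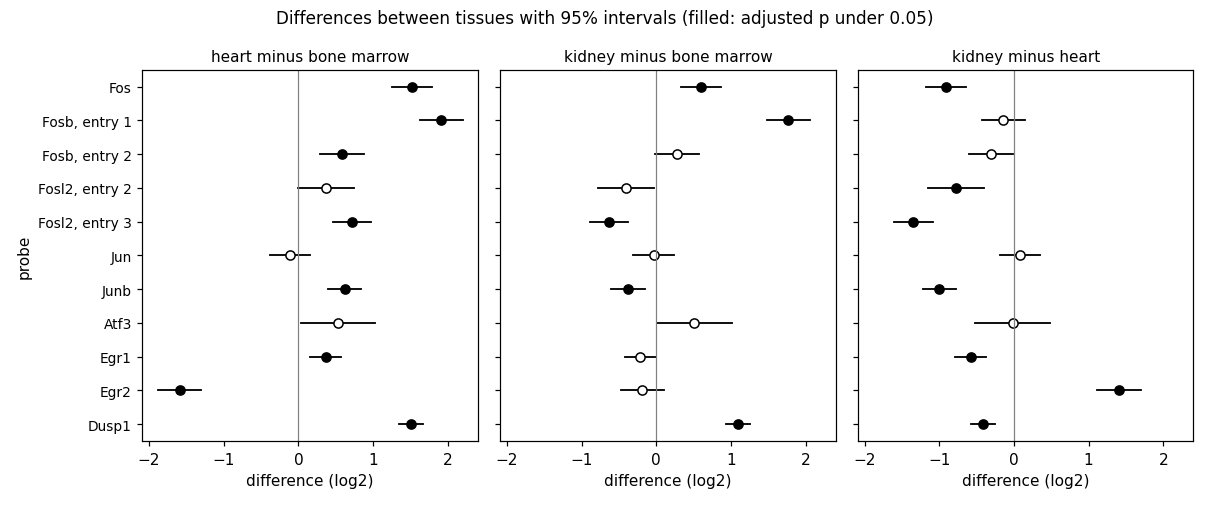
Log2 difference between tissues (x axis) for the 11 tested member entries (y axis), with 95% intervals from the limma fit on 4 arrays per tissue; filled points passed an adjusted p of 0.05. In the heart minus bone marrow panel 7 filled points lie to the right of 0 and Egr2, at -1.59, to the left, and Fosb entry 1 has the largest rise at 1.91.

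Dusp1, the MAP kinase phosphatase, was high in both heart and kidney cells. Its log2 signal was 13.29, 13.13, 13.09 and 13.10 in bone marrow, 14.51, 14.55, 14.85 and 14.72 in heart, and 14.34, 14.19, 14.14 and 14.31 on the kidney arrays. The tissues did not overlap. Dusp1 was 2.84-fold higher in heart than in bone marrow (1.50 ± 0.08, adjusted p = 1.2e-12) and 2.13-fold higher in kidney than in bone marrow (1.09 ± 0.08, adjusted p = 4.02e-10). It was lower in kidney than in heart (-0.41 ± 0.08, adjusted p = 0.000184).

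Atf3, a repressor and activator induced by many stresses, was dim and variable. Detection was reached on 3 arrays of bone marrow and 4 of each other tissue, with log2 signals of 6.32, 5.57, 6.34 and 5.74 in bone marrow, 6.18, 5.95, 7.15 and 6.81 in heart, and 6.32, 6.67, 6.70 and 6.33 on the kidney arrays. The 3 ranges overlapped. It gave 0.53 ± 0.24 in heart minus bone marrow (adjusted p = 0.0715) and 0.51 ± 0.24 in kidney minus bone marrow (adjusted p = 0.0985). Single arrays decided the first call, which passed without bone marrow replicate 1 (0.64 ± 0.24, adjusted p = 0.03), bone marrow replicate 3 (0.65 ± 0.26, adjusted p = 0.0423), heart replicate 1 (0.64 ± 0.26, adjusted p = 0.0454) or heart replicate 2 (0.72 ± 0.24, adjusted p = 0.0172), and was 0.32 ± 0.23 (adjusted p = 0.291) without heart replicate 3. The kidney call also passed without bone marrow replicate 1 (0.63 ± 0.24, adjusted p = 0.0427).

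Within a tissue many member entries were highest on the same array. Heart replicate 3 was the highest of the 4 heart arrays for 7 of 11 entries and the lowest for 0, with a median deviation of 0.21 from the heart mean. Kidney replicate 4 was the highest of its tissue for 7 of 11 and the lowest for 0 (median deviation 0.13). Over all entries these arrays were the highest of their tissue for 24.9% and 23.4%. Bone marrow replicate 1, heart replicate 1 and kidney replicate 1 were each the lowest of their tissue for 6 of 11, against 32%, 23.5% and 27.3% of all entries. Bone marrow replicate 1 stood apart over all entries as well, as the highest of its tissue for 34% of them and with a median absolute deviation of 0.172, against 0.109 to 0.126 for the other bone marrow arrays, and kidney replicate 1 was the highest of its tissue for 29.4%. The 11 entries come from 9 genes on the same arrays, so they are not independent. The residual SD of the member entries was 0.12 (Dusp1) to 0.41 (Atf3), against a median of 0.19 over all entries, and the Atf3 value exceeded 96.7% of them.

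**Figure D4:**
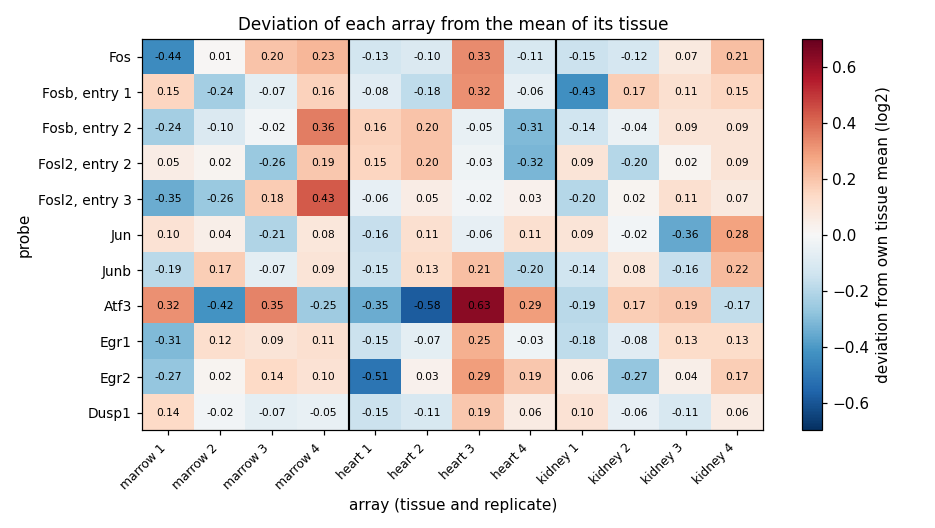
Deviation of each array from the mean of its own tissue, in log2 (colour and printed value), for the 11 tested member entries (rows) on the 12 arrays (columns, black lines between tissues). Heart replicate 3 is above its tissue mean for Fos by 0.33, Fosb entry 1 by 0.32 and Atf3 by 0.63, and bone marrow replicate 1 is below its mean for Fos (-0.44) and Egr1 (-0.31).

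Other genes of the same response were taken from lists, each gene read on its brightest tested entry. The counts of every list below stand beside these shares over all entries. In heart minus bone marrow 23.6% were higher and 28% lower. In kidney minus bone marrow 18.4% were higher and 20.8% lower, and in kidney minus heart 23.3% and 20.4%. Of 33 tested further immediate early genes, 19 were higher and 2 lower in heart than in bone marrow (median 0.40, against -0.04 over all entries). The rises included Ptgs2, which encodes the prostaglandin synthase COX-2 (2.34 ± 0.15, against a bone marrow mean of 5.69 at the detection floor, with detection on 2 of its 4 arrays), the polo-like kinase gene Plk2 (1.91 ± 0.09), the Krüppel-like factor gene Klf4 (1.68 ± 0.11) and Zfp36, which encodes a protein that destabilizes AU-rich mRNAs (1.59 ± 0.10). The 2 that fell were Egr3, another EGR factor gene (-0.78 ± 0.11), and the proto-oncogene Myc (-0.60 ± 0.14). In kidney minus bone marrow 17 were higher and 8 lower (median 0.27, against -0.02). Tnfaip3, an inhibitor of NF-kappaB signalling (2.54 ± 0.14), Plk2 (2.27 ± 0.09) and the growth arrest gene Gadd45g (1.36 ± 0.08) rose, while the Zfp36 relative Zfp36l1 (-1.79 ± 0.14), the cytokine signalling inhibitor Socs3 (-1.42 ± 0.15), Egr3 (-1.33 ± 0.11) and the factor gene Cebpb (-1.08 ± 0.09) fell. In kidney minus heart 6 were higher and 18 lower (median -0.31, against 0.04), with Socs3 (-2.43 ± 0.15) and Zfp36 (-1.68 ± 0.10) among the lower. The largest change of the list in that comparison was upward, Tnfaip3 at 2.70 ± 0.14, and Myc (1.12 ± 0.14) and the small GTPase gene Rhob (0.89 ± 0.09) were higher too.

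**Figure D5:**
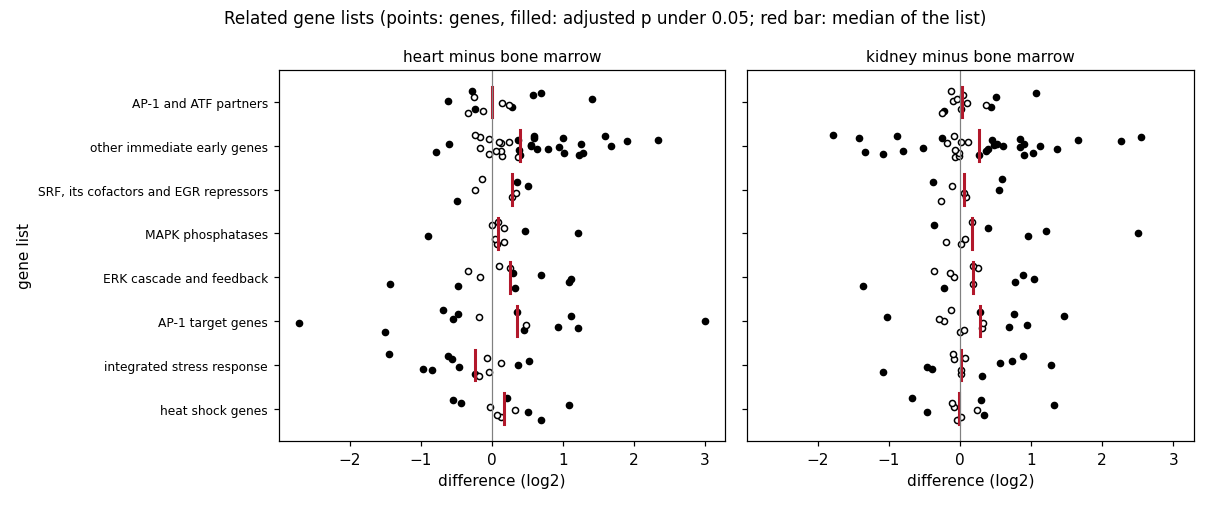
Log2 difference from bone marrow (x axis) of the tested genes of 8 related lists (y axis), for heart in the left panel and kidney in the right, with filled points past an adjusted p of 0.05 and a red bar at the list median. The further immediate early genes have medians of 0.40 and 0.27, and the AP-1 target genes span from -2.71 (Mmp13) to 3.00 (Mmp3) in heart.

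Partners of AP-1 and ATF factors had medians within 0.1 of those over all entries. Of 12 tested genes 4 were higher and 3 lower in heart than in bone marrow (median 0.01), 3 were higher and 1 lower in kidney than in bone marrow (median 0.02), and 3 were higher and 2 lower in kidney than in heart (median 0.13). Crem, which encodes a cAMP-responsive factor with an inducible repressor form, rose in heart by 1.41 ± 0.16 and Jund, a further JUN gene, by 0.58 ± 0.13. The small MAF gene Maff rose in kidney by 1.07 ± 0.18. Upstream, Srf was higher in kidney than in bone marrow (0.59 ± 0.08) and gave -0.13 ± 0.08 in heart (adjusted p = 0.163). Nab1 and Nab2, which encode corepressors of EGR factors, were higher in heart than in bone marrow (0.51 ± 0.10 and 0.36 ± 0.12) and lower in kidney than in heart (-0.62 ± 0.10 and -0.75 ± 0.12). Of the 7 tested genes of that list, 2 were higher and 1 lower in both heart and kidney against bone marrow (medians 0.28 and 0.06), and 2 were higher and 2 lower in kidney than in heart (median -0.19).

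Among the other MAP kinase phosphatases, Dusp4 and Dusp5 were higher in both heart and kidney than in bone marrow. Of 9 tested genes 2 were higher and 1 lower in heart than in bone marrow (median 0.09), and 4 were higher and 1 lower in kidney than in bone marrow (median 0.17). Dusp4, a nuclear phosphatase of ERK and JNK, rose by 1.21 ± 0.18 in heart and 2.51 ± 0.18 in kidney, and the ERK phosphatase gene Dusp5 by 0.47 ± 0.11 and 1.21 ± 0.11. In kidney minus heart 3 were higher and 2 lower (median 0.08), and both Dusp4 (1.30 ± 0.18) and Dusp5 (0.73 ± 0.11) were higher in kidney, where Dusp1 was lower. Of 11 tested genes of the ERK cascade and its feedback, 5 were higher and 2 lower in heart (median 0.26) and 3 higher and 2 lower in kidney (median 0.19), each set against bone marrow, and 1 was higher and 4 lower in kidney than in heart (median -0.04). The kinase gene Map2k1 was higher in both (1.12 ± 0.20 and 1.04 ± 0.20, with detection on 3 of the 4 bone marrow arrays), and the ETS factor gene Etv4 was lower in heart (-1.43 ± 0.19).

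Genes known as AP-1 targets split. Of 13 tested, 6 were higher and 5 lower in heart than in bone marrow (median 0.35), 5 higher and 1 lower in kidney than in bone marrow (median 0.28), and 4 higher and 4 lower in kidney than in heart (median 0.27). The matrix protease gene Mmp3 (stromelysin) was higher in heart by 3.00 ± 0.21 and the collagenase gene Mmp13 lower (-2.71 ± 0.13), each against bone marrow. The cytokine gene Il6 rose by 1.21 ± 0.20 and the urokinase receptor gene Plaur by 1.11 ± 0.15 in heart, and the chemokine gene Ccl2 fell (-1.50 ± 0.13). In kidney, Plaur rose by 1.46 ± 0.15 and Plau, which encodes urokinase, fell (-1.02 ± 0.09).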

How the data were processed

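Per the file headers, the raw table gives each array's probe intensity beside a detection p-value, read as 1 minus p since it rises with signal. The deposited table of the authors' processed intensity names lumi in the submitters' processing notes, with no settings given in the sources used here. It equals the first raw entry of each identifier in rank, so later entries (Fosb 2, Fosl2 2 and 3) are not in it. Entries sharing an identifier were kept apart and carry that identifier's symbol.

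Raw intensities were processed in R 4.3.3 with limma 3.58.1: neqc (offset 16), log2, entries with detection p under 0.05 on at least 4 of 12 arrays, a mean per tissue, lmFit and eBayes with trend. Adjustment was over all 20649 tested entries, two-sided. The fit was also run on simulated data, but the outcome is not given here and is not used as support. The number of arrays limits precision. Bounds set the brighter mean against each dim array's detection floor or own signal, whichever is higher.

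The members and the 8 gene lists were chosen with earlier results of these data known. Of the lists, up to 4 rises and 4 falls per comparison, largest first among genes called with no overlap, could be named, and other members named are said with their values. Srf in heart falls outside that rule. Alternatives covered background correction, offset, scaling, filter, probe choice, variance trend, samples fitted, replicate block and each array left out.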

Additional observations from a re-analysis of the deposited data

Results flagged for a closer look

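In 3 of 33 sets of 4 arrays, 1 array stood far from the other 3, where chance alone gives about 1 in 20 such sets. For Egr1, bone marrow replicate 1 (14.22) lay below the others (14.62 to 14.65), with a gap of 0.939 of the tissue's range. For Fos, heart replicate 3 (13.80) lay above the others (13.35 to 13.38), with a gap of 0.935 of the range, and without it heart minus bone marrow was 1.41 ± 0.13. For Fosb entry 1, kidney replicate 1 (9.67) lay below the others (10.21 to 10.26), with a gap of 0.908 of the range, and without it kidney minus bone marrow was 1.91 ± 0.13.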

How the results depend on the processing

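The counts of called member entries stayed within 1.5 times their values under all 11 other settings run and with each of 12 arrays left out, and no called member difference changed sign or lost its call where it was computed. With arrays left out in turn the counts were 8 to 9 for heart minus bone marrow, 5 to 7 for kidney minus bone marrow and 7 to 8 for kidney minus heart. For these counts and those below, the share of all entries called under the same setting is not given. They show only whether the member calls held, not how members compare with other entries. Under median scaling, kidney minus bone marrow called 7, adding Egr1 (-0.29 ± 0.09) and Fosl2 entry 2 (-0.50 ± 0.19). Without the variance trend Fosl2 entry 2 also passed against bone marrow in heart (0.37 ± 0.13) and kidney (-0.40 ± 0.13), and with only the 2 tissues in the fit Fosb entry 2 passed in kidney minus heart (-0.31 ± 0.12). No kidney array detected Fosl2 entry 2. With the main normalization the bound on its fall in kidney against bone marrow was 0.993-fold, which is no fall. Its kidney calls against bone marrow are therefore not used as support. On the authors' processed values 8 member entries could be tested, of which 6, 4 and 5 were called in the 3 comparisons. Without background correction the rise of Fosb entry 1 was 1.61 in heart and 1.48 in kidney. Deviations of same-numbered arrays correlated between -0.18 and 0.123 over all tested entries, so the numbers were not taken to pair the samples. For the member entries alone, replicate 1 was the lowest array for 6 of 11 in each tissue. Whether the numbers pair the samples is not known. With a replicate block 9, 6 and 7 member entries were called, adding Atf3 in heart (0.53 ± 0.22, adjusted p = 0.0481) and Egr1 in kidney (-0.22 ± 0.07, adjusted p = 0.0254) against bone marrow. A slide block was not run, since the column headers give no slide. Atf3 and Fosl2 entry 2 lie near background, where differences shrink without background correction.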

Other observations

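Genes of the integrated stress response, the pathway in which ATF4 induces Atf3, were tested for 13 genes. In heart minus bone marrow 2 were higher, 7 lower and 4 did not pass (median -0.23, against -0.04 over all entries, of which 28% were lower), among them Trib3, a pseudokinase gene (-1.45 ± 0.16), and Ddit3, which encodes CHOP (-0.97 ± 0.10). Against bone marrow 5 were higher and 3 lower in kidney (median 0.01), with the stress protein gene Nupr1 higher (1.28 ± 0.08), and in kidney minus heart 9 were higher and 1 lower (median 0.47, against 0.04 over all entries, of which 23.3% were higher), with the cystine transporter gene Slc7a11 at 1.50 ± 0.14. Of 10 tested heat shock genes 4 were higher and 2 lower in heart, and 3 higher and 2 lower in kidney, against bone marrow (medians 0.17 and -0.01), and 2 were higher and 3 lower in kidney than in heart (median -0.07). The small heat shock gene Hspb1 rose in both heart (1.09 ± 0.12) and kidney (1.32 ± 0.12), while the chaperone gene Hspa1a was lower in kidney than in heart (-0.96 ± 0.12).

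Among 17315 named tested entries, those whose log2 signals followed the members most closely over the 12 arrays differed from member to member, as a description over 3 tissues of 4 arrays that share normalization. For Fos they were Nid2, a basement membrane gene (Pearson r = 0.989), the protease gene Adamts9 (0.984) and Sft2d2 (0.981). For Fosb entry 1 they were Igfbp5 (0.988), Crim1 (0.985) and Vcl (0.983), and for entry 2 Mblac1 (0.948), Rbm5 (0.927) and Frmd6 (0.927). Dusp1 was followed most closely by Col8a1 (0.992), and Egr2 by Nvl (0.98). No gene came closer to Jun than Bdh1 (0.843).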
